A study of Homo sapiens with 12 samples.

Results

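The kinesin motor genes were analysed in A375, an established melanoma cell line that carries a BRAF mutation. Members were all rows of the table of raw counts whose symbol is KIF followed by a number and at most 1 letter from A to C, or KIFC followed by 1, 2 or 3, which gave 42 of 44659 rows. From their textbook roles, 14 were listed as mitotic, 15 as transport, 6 as cilium and 7 as other kinesins. MAPKi-treated cells received vemurafenib, which inhibits BRAF, together with cobimetinib, which inhibits MEK, each at 500 nM for 24 h, and their reference cells (DMSO) the solvent for the same time. Gln-depleted cells were kept for 24 h in medium without glutamine, and their reference cells (CTRL medium) in the same medium with 2 mM glutamine. Each of the 4 groups has 3 libraries. The labels describe RNA from the cytoplasmic fraction, whereas the methods of the study describe total RNA, and ribosomal RNA was depleted. All libraries come from 1 cell line, and nothing in the labels says that the 3 libraries of a group come from separate cultures, so the p-values measure the spread between these libraries.

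Kinesins are motor proteins that use ATP to walk along microtubules or, in the KIF2 and KIF24 group, to take microtubule ends apart. Mitotic kinesins build the spindle, move chromosomes and organize the midzone between the separating chromosomes, and their mRNAs rise when cells approach mitosis. Transport kinesins carry vesicles, mitochondria, lysosomes and RNA through the cytoplasm, often through light chains and adaptor proteins. Many genes that peak late in the cell cycle carry in their promoter a CHR element, which the MuvB complex binds, and a CCAAT box, which the factor NF-Y binds. With E2F4 and RBL1 or RBL2 the MuvB complex represses such genes in resting cells, and with MYBL2 or FOXM1 it activates them in dividing cells.

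Promoters were read for 34 of the 42 members from RefSeq (GRCh38.p14), each from 250 bases before the annotated start site to 50 bases after it. The stretches below show the motifs of 6 mitotic kinesins, KIF24, which fell with them in MAPKi-treated cells, and the transport kinesins KIF5B and KIF3B. Capitals mark the CHR motif (TTTGAA or TTCGAA) and CCAAT on either strand, so that TTCAAA and ATTGG are the same motifs on the opposite strand. The positions are KIF11 chr10:92593057-92593127 (plus strand), KIF14 chr1:200620725-200620793 (minus strand), KIF18B chr17:44947746-44947848 (minus strand), KIF20A chr5:138178998-138179069 (plus strand), KIF22 chr16:29790665-29790749 (plus strand), KIF23 chr15:69414265-69414319 (plus strand), KIF24 chr9:34329242-34329442 (minus strand), KIF5B chr10:32056460-32056585 (minus strand) and KIF3B chr20:32277553-32277597 (plus strand), each printed 5′ to 3′ along the strand of the gene.
KIF11: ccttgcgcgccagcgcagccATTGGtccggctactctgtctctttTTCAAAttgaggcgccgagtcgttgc
KIF14: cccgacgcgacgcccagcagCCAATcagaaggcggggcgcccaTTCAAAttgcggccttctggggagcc
KIF18B: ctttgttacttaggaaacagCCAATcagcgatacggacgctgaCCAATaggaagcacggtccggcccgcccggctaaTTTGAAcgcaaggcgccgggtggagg
KIF20A: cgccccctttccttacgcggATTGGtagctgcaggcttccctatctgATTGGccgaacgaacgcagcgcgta
KIF22: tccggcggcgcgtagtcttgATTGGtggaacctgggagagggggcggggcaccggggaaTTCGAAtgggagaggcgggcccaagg
KIF23: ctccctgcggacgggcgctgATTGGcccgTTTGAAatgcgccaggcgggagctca
KIF24: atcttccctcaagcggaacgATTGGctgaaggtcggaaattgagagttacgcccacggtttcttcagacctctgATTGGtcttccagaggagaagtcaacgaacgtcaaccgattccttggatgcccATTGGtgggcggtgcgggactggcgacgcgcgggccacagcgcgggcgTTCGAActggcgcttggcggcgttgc
KIF5B: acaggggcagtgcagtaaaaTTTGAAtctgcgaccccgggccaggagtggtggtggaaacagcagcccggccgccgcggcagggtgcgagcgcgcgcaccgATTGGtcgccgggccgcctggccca
KIF3B: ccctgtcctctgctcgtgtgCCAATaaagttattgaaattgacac

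A CHR motif was found in 11 of 14 promoters of mitotic kinesins, against 13.5% of 15843 promoters of protein-coding genes of the same length. Both a CHR motif and CCAAT were found in 10 of 14 (71.4%), against 5.57% of all these promoters. CCAAT by itself is common, at 36.4% of all promoters. In the mitotic kinesins the CHR motif began between 55 bases before the start site (KIF23) and 31 bases after it (KIF20B), and a CCAAT stood upstream of it in each of the 10 promoters with both. KIF20A has CCAAT at 2 places and no CHR motif in this window, KIF15 has a CHR motif and no CCAAT, and KIF2B and KIF2C have neither. Of the 11 promoters of transport kinesins, 1 (KIF5B) holds both motifs, with the CHR motif 140 bases before the start and farther out than the CCAAT. Among 4 promoters of cilium kinesins, 1 (KIF24) holds both, with its CHR motif next to the start site, as in KIF14 and KIF18B. Of the 5 promoters of other kinesins, 0 hold a CHR motif and 1 (KIF12) holds CCAAT. KIF2A and KIF21A, which were also downregulated in MAPKi-treated cells, hold neither motif. The map of motif positions shows this arrangement. A match is a description of these letters and does not show that a factor binds there.

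**Figure D1:**
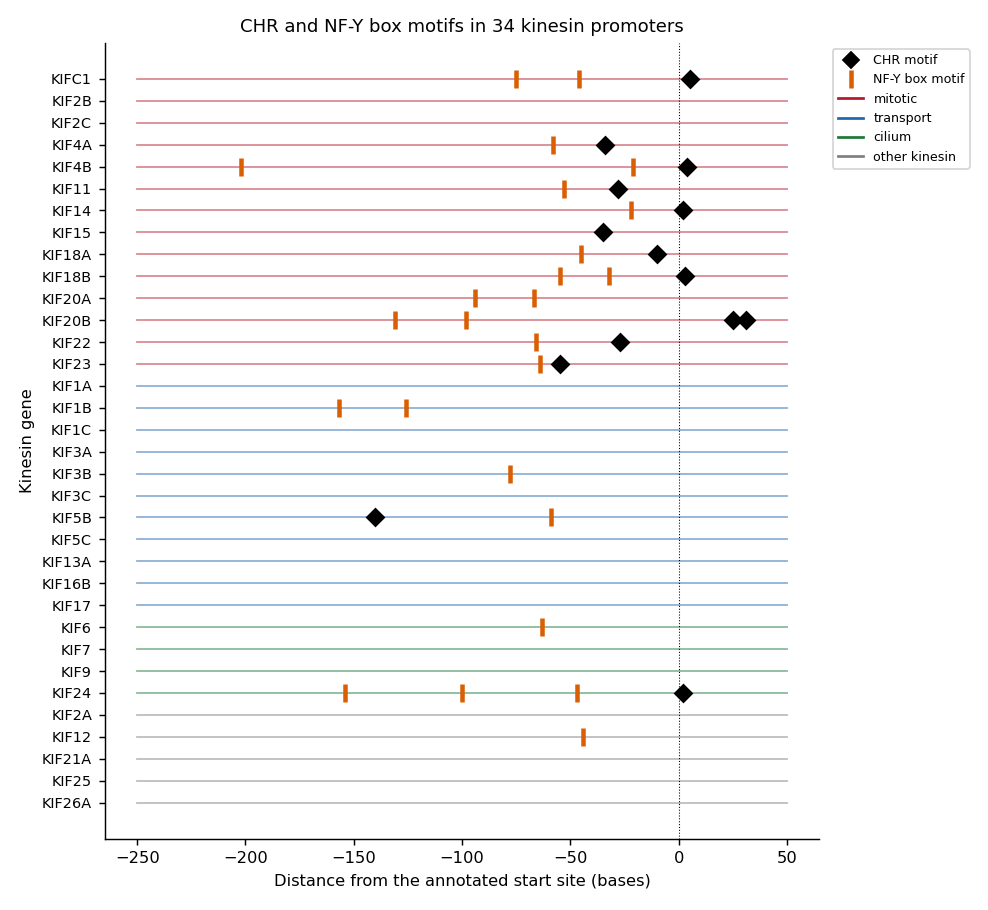
Positions of the CHR motif (diamonds) and of the CCAAT motif, labelled as NF-Y box (bars), in the promoters of 34 kinesin genes, with the distance from the annotated start site in bases on the x axis and 1 line per gene, coloured by role. Mitotic kinesins hold both motifs in 10 of 14 promoters, within 100 bases of the start for most, and transport kinesins in 1 of 11.

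Between 31056296 and 40071368 reads were counted per library, and TMM factors ranged from 0.918 to 1.065. Counting error is therefore small for all but the rarest kinesins. Of 7 melanocytic markers, SOX10, MITF, PMEL, DCT and S100B were read in all libraries, whereas MLANA was at 0.675, 0.679 and 1.02 CPM and TYR at 0.889, 0.848 and 1.02 CPM with DMSO. The summed level of 6 markers of leukocytes, epithelium and endothelium (PTPRC, CD3E, EPCAM, KRT5, KRT14 and PECAM1) was at most 0.675 CPM in any library. In the Gln depletion experiment the labels put replicate 1 of both groups in experimental batch 1 and replicates 2 and 3 in experimental batch 2. Replicate 1 stood apart there: chi-square per degree of freedom was 161 and 174 between CTRL medium replicate 1 and the others, against 36.2 between replicates 2 and 3. The MAPKi experiment was sequenced in batch 2 and the Gln depletion experiment in batch 1, so levels are compared within each experiment and only fold changes between them.

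In MAPKi-treated cells the mitotic kinesins fell together, whereas the transport kinesins moved little and in both directions. Of the 12 mitotic kinesins with enough reads to be tested, 12 fell, by a median log2 fold change of -1.24, beside a median of 0.01 over the 12593 mRNAs tested. Of these, 10 were downregulated, that is, lower by more than 1.5-fold at an adjusted p of at most 0.05 (quasi-likelihood test of edgeR, Benjamini-Hochberg adjusted over all mRNAs tested), a call made for 18.4% of all mRNAs tested. A member is said to fall or rise when the same fit, tested against no change, gave an adjusted p of at most 0.05, which held for 38.8% of all mRNAs in the lower direction and 39.3% in the higher. Of 14 tested transport kinesins, 4 fell, 6 rose and 4 did neither, with a median log2 fold change of 0.12. The 2 upregulated ones were KIF3B and KIF5A, a call made for 17.2% of all mRNAs. For the transport kinesins these counts lie near the shares among all mRNAs. The plot of fold changes shows both lists.

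**Figure D2:**
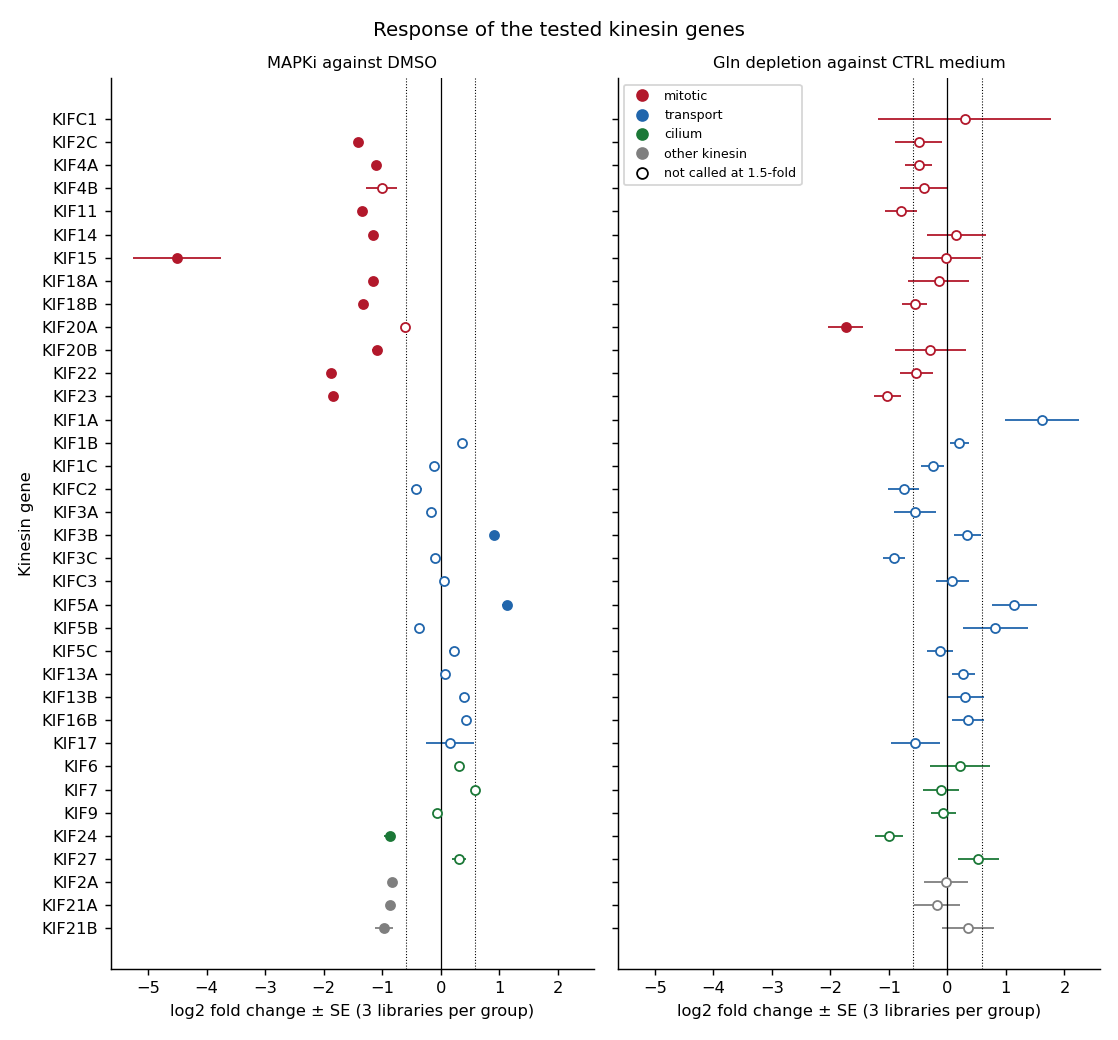
Log2 fold change (x axis) of each tested kinesin gene, with its standard error, for MAPKi against DMSO on the left and Gln depletion against CTRL medium on the right, 3 libraries per group. Filled points were called beyond the 1.5-fold limit (dotted lines). On the left all 12 mitotic kinesins lie below 0, and on the right KIF20A is the 1 filled point.

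The kinesins that act at the central spindle and in cytokinesis fell by unequal amounts. KIF23, the motor subunit of centralspindlin, was at 158, 160.5 and 169.6 CPM with DMSO and at 44.9, 46.6 and 44.3 CPM with MAPKi. Its log2 fold change was -1.84 (SE 0.05, adjusted p = 1.1e-08 against the 1.5-fold limit, n = 3 per group). KIF14, which works with the citron kinase CIT at the midbody, was at 97.5, 99.2 and 108 CPM with DMSO and at 41.0, 49.6 and 47.1 CPM with MAPKi (log2 fold change -1.15, adjusted p = 2.0e-05). No MAPKi library of these genes reached the level of any DMSO library. KIF20B, a relative of KIF20A with a part in abscission, was at 59.9, 61.3 and 69.9 CPM with DMSO and at 27.2, 31.2 and 31.1 CPM with MAPKi (log2 fold change -1.10, adjusted p = 4.6e-05). KIF4A, a chromokinesin that brings PRC1 to the midzone, was at 110.3, 108 and 125 CPM with DMSO and at 51.9, 54.1 and 53.3 CPM with MAPKi (log2 fold change -1.11, adjusted p = 6.9e-06). Both were again apart between the groups in every library. KIF20A, which carries the chromosomal passenger complex to the midzone, changed least among the mitotic kinesins, from 172, 161 and 191 CPM with DMSO to 109.9, 121 and 114 CPM with MAPKi. Its log2 fold change of -0.61 (SE 0.07) differed from no change (adjusted p = 2.6e-05) but did not pass the 1.5-fold limit (adjusted p = 0.39).

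Of the motors that move chromosomes and build the spindle, KIF22 fell most among those with over 10 CPM. KIF22, a chromokinesin that pushes chromosome arms, was at 103, 109 and 113 CPM with DMSO and at 29.9, 30.3 and 28.2 CPM with MAPKi, a log2 fold change of -1.88 (SE 0.05, adjusted p = 1.5e-08). KIF11, also called Eg5, which slides antiparallel microtubules and pushes the spindle poles apart, was at 135, 138 and 155 CPM with DMSO and at 53.4, 59.0 and 56.3 CPM with MAPKi (log2 fold change -1.35, adjusted p = 1.3e-06). The 3 libraries of each group lay close together for both genes. KIF2C, or MCAK, which depolymerizes microtubules at kinetochores, was at 184, 179 and 209 CPM with DMSO and at 68.8, 73.8 and 72.2 CPM with MAPKi (log2 fold change -1.41, adjusted p = 9.7e-07). KIF18B, which works with KIF2C on astral microtubules, was at 109.7, 100.2 and 108 CPM with DMSO and at 39.0, 44.8 and 42.8 CPM with MAPKi (log2 fold change -1.33, adjusted p = 1.1e-06). These partners thus fell by similar amounts, and neither overlapped between groups. KIF18A, which damps the oscillation of chromosomes at the metaphase plate, was at 32.1, 31.0 and 34.5 CPM with DMSO and at 15.3, 14.2 and 14.5 CPM with MAPKi (log2 fold change -1.15, adjusted p = 5.9e-06).

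The remaining mitotic members rest on few reads or on uncertain rows. KIF15, which can stand in for KIF11, had 154, 28 and 188 reads with DMSO and 5, 8 and 3 with MAPKi, and the table holds a second row of the same symbol with 24 reads in MAPKi replicate 2. It was called, with the largest fold change and the largest standard error of the tested kinesins in this comparison (log2 fold change -4.51, SE 0.75, adjusted p = 0.0012). KIF15 passed the filter on low counts only through its DMSO libraries, where it is high, so little weight rests on this call. KIF4B, an intronless near-copy of KIF4A whose reads may come from KIF4A, was at 1.22 ± 0.122 CPM with DMSO and 0.608 ± 0.192 CPM with MAPKi (SD, n = 3), and fell (log2 fold change -1.01, adjusted p = 0.0072) without passing the 1.5-fold limit. KIFC1, a minus-end motor that clusters centrosomes, had 8, 6 and 10 reads with DMSO and 2, 26 and 0 with MAPKi on its first row and was not tested. The table holds a pair of further KIFC1 rows, so no level of this gene is drawn from it. KIF2B had 0 reads in all 12 libraries, which allows up to 3 reads in each. Without KIF15, KIF4B and KIFC1, 9 of 10 mitotic kinesins were downregulated, with a median log2 fold change of -1.24. In these bulk libraries a smaller share of cells in G2 and mitosis and less mitotic mRNA per cell cannot be told apart.

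**Figure D3:**
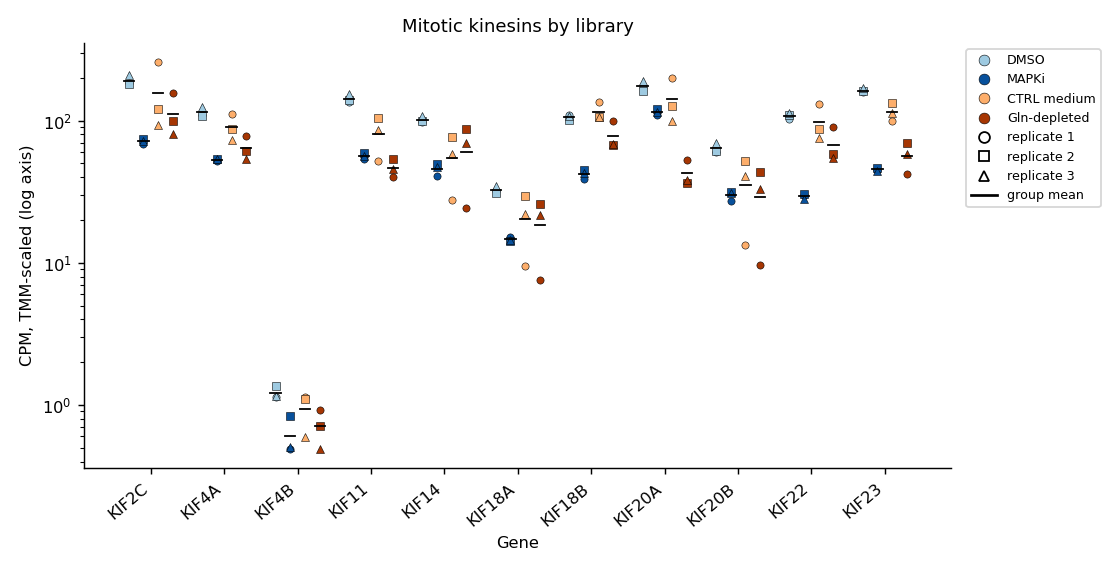
CPM (log axis) of 11 tested mitotic kinesins in each of the 12 libraries, with the 4 groups by colour, replicates by symbol and the group mean as a bar. The MAPKi points lie below the DMSO points for all 11 genes, whereas replicate 1 of the Gln depletion experiment (circles) lies apart from replicates 2 and 3, below them for KIF14, KIF18A and KIF20B, for example, and above them for KIF2C.

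The proliferation markers moved with the mitotic kinesins. All 6 (MKI67, TOP2A, CCNB1, CCNA2, PCNA and MCM2) were downregulated in MAPKi-treated cells, beside 18.4% of all mRNAs. Their log2 fold changes ran from -2.39 (MCM2) to -1.0 (TOP2A). Their summed level was between 722 and 752 CPM with MAPKi and between 1883 and 2119 CPM with DMSO. Their part in the change of the kinesins was not tested.

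Proteins that work with the mitotic kinesins were downregulated as well. On a list of 14 partners, 14 were downregulated, beside 18.4% of all mRNAs, with a median log2 fold change of -1.26. AURKB, the kinase of the chromosomal passenger complex that KIF20A carries, was lowest, at 93.2, 95.3 and 98.7 CPM with DMSO and at 19.4, 19.4 and 21 CPM with MAPKi (log2 fold change -2.26, adjusted p = 4.0e-09). INCENP, the scaffold of that complex, changed least (-0.76, adjusted p = 0.0045). RACGAP1, the other subunit of centralspindlin, had a log2 fold change of -1.36 beside -1.84 for KIF23. CIT, the partner of KIF14, had -1.90, PRC1, the partner of KIF4A, -1.07, and TPX2, which recruits KIF11 to the spindle, -1.23. CENPE, a kinetochore kinesin whose symbol is outside the KIF names, had a log2 fold change of -0.96 (adjusted p = 0.00095).

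Of 15 genes for the factors that bind the CHR element, CCAAT and E2F sites, 12 fell, beside 38.8% of all mRNAs. Beyond the 1.5-fold limit, 7 of them were downregulated, beside 18.4%. E2F1 fell most, from 41.3, 43.8 and 39.2 CPM to 6.42, 5.42 and 5.34 CPM (log2 fold change -2.85). MYBL2, the activating partner of the MuvB complex, had a log2 fold change of -2.39, FOXM1 of -0.79 and the MuvB subunit LIN9 of -1.35. Of the repressing partners, RBL1 (-0.59, adjusted p = 1.6e-06) and E2F4 (-0.55, adjusted p = 2.0e-05) fell, whereas RBL2 rose (0.35, adjusted p = 0.00014), as did NFYC (0.44, adjusted p = 6.0e-06), which was the highest of the list. Whether these factors act on the kinesins was not tested.

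Among the transport kinesins, KIF3B and KIF5A rose beyond the 1.5-fold limit in MAPKi-treated cells. KIF3B, a motor subunit of heterotrimeric kinesin-2, which carries cargo along cilia and in the cytoplasm, was at 81.8, 82.9 and 83.0 CPM with DMSO and at 157, 156 and 155 CPM with MAPKi (log2 fold change 0.92, SE 0.04, adjusted p = 5.3e-06). Its companions did not rise with it. KIF3A, the usual partner, fell slightly, from 34, 32.2 and 34.4 CPM to 29.5, 30.3 and 29.9 CPM (log2 fold change -0.17, adjusted p = 0.0094), and KIF3C, the alternative partner, had a log2 fold change of -0.09 (adjusted p = 0.072). KIFAP3, which links the motor subunits to cargo, fell (-0.55, adjusted p = 5.0e-05).

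The heavy chains of kinesin-1 moved in different directions. KIF5A, known from neurons, was at 9.97, 10.6 and 12.4 CPM with DMSO and at 23.8, 23.1 and 25.3 CPM with MAPKi (log2 fold change 1.13, SE 0.09, adjusted p = 7.8e-05). KIF5B, the ubiquitous heavy chain, was at 327, 344 and 352 CPM with DMSO and at 258, 265 and 264 CPM with MAPKi and fell (log2 fold change -0.38, adjusted p = 3.7e-05). The groups were apart for both genes, but KIF5B remained the more abundant chain by a wide margin. KIF5C rose by less (0.22, adjusted p = 0.026) with groups that overlap, and the table holds a second KIF5C row. KIF1B, KIF13B and KIF16B, which carry vesicles and endosomes, also rose, with log2 fold changes of 0.36, 0.41 and 0.42 (adjusted p = 6.7e-05, 0.00012 and 0.00019). KIFC2 (-0.42) and KIF1C (-0.11, adjusted p = 0.049) fell. KIF13A, KIF17 and KIFC3 had log2 fold changes between 0.05 and 0.16 that did not pass the test, and KIF1A had 2 to 6 reads per library and was not tested.

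**Figure D4:**
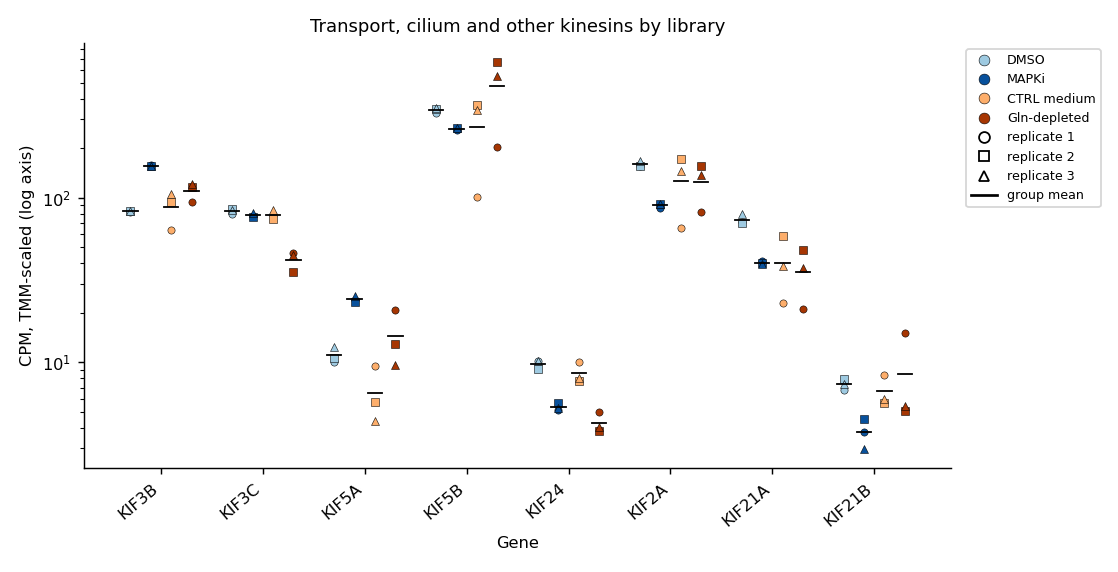
CPM (log axis) of 8 transport, cilium and other kinesins in each library, with the 4 groups by colour, replicates by symbol and the group mean as a bar. KIF3B and KIF5A are higher in every MAPKi library than with DMSO, KIF24, KIF2A, KIF21A and KIF21B are lower, and KIF3C is lower in every Gln-depleted library than in CTRL medium.

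Among the proteins that link kinesins to cargo, changes went both ways. Of 14 adaptors and light chains, 5 were upregulated, beside 17.2% of all mRNAs, and 1 was downregulated, beside 18.4%, in MAPKi-treated cells. KLC4, a light chain of kinesin-1, rose most, from 12.3, 13.5 and 14.5 CPM to 40.1, 39.0 and 39.8 CPM (log2 fold change 1.56, adjusted p = 3.9e-07). The common light chains KLC1 (-0.34) and KLC2 (-0.39) fell. TRAK1 and TRAK2, which tie mitochondria to kinesin-1, had log2 fold changes of 1.26 and 1.32. MAPK8IP1, or JIP1, had 1.36, and PLEKHM2, which links lysosomes to kinesin-1, 0.82. MAPK8IP3, or JIP3, was the 1 downregulated member (-0.79, adjusted p = 0.0092), a call that DESeq2 did not make. Of 19 tested genes of cytoplasmic dynein and dynactin, the motor that walks the opposite way, 5 fell, beside 38.8% of all mRNAs, and 10 rose, beside 39.3%, with a median log2 fold change of 0.17. The 1 call beyond the 1.5-fold limit was the light chain DYNLT3 (-2.07, adjusted p = 8.2e-09). DYNC1I2 had the highest value, 1.80, which did not pass the test against no change (adjusted p = 0.088). It rests on 1 library, since DYNC1I2 was at 0.828, 1.24 and 0.882 CPM with DMSO and at 0.921, 0.606 and 8.68 CPM with MAPKi.

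Of the cilium kinesins, KIF24 stood apart from the rest. KIF24, which takes microtubules apart at the centriole and holds back the growth of cilia, was at 10.2, 9.05 and 10.1 CPM with DMSO and at 5.10, 5.68 and 5.29 CPM with MAPKi (log2 fold change -0.87, SE 0.09, adjusted p = 0.0047). KIF7, a regulator of the cilium tip in Hedgehog signalling, rose from 9.63, 10.4 and 10.6 CPM to 16.4, 15.4 and 14.4 CPM (0.59, adjusted p = 8.4e-05), and KIF6 and KIF27 rose by 0.32 each. KIF9 did not pass the test (-0.06, adjusted p = 0.47), and KIF19 had at most 2 reads. All 3 tested members of the last list were downregulated, beside 18.4% of all mRNAs. KIF2A, a relative of KIF2C that depolymerizes microtubules at spindle poles and in interphase cells, was at 156, 156 and 167 CPM with DMSO and at 86.5, 91.5 and 91.1 CPM with MAPKi (log2 fold change -0.83, adjusted p = 0.00020). KIF21A, which restrains microtubule growth at the cell cortex, was at 70.9, 70.2 and 79.6 CPM with DMSO and at 41.3, 39.9 and 39.7 CPM with MAPKi (log2 fold change -0.87, adjusted p = 0.00027). Their groups did not overlap. KIF21B was at 6.75, 7.89 and 7.36 CPM with DMSO and at 3.77, 4.50 and 2.96 CPM with MAPKi (log2 fold change -0.97, adjusted p = 0.013). With DESeq2 the calls of KIF21B and KIF24 were lost (adjusted p = 0.063 and 0.066). KIF12, KIF25, KIF26A and KIF26B had 0 to 8 reads per library and were not tested.

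In Gln-depleted cells few kinesins passed the test, and the replicates of a group lay farther apart than in the MAPKi experiment. The 1 downregulated member of 36 tested was KIF20A, the mitotic kinesin that had changed least with MAPKi, a call made for 2.41% of all 12510 mRNAs, a share close to that among the kinesins. Of 13 tested mitotic kinesins, 2 (KIF20A and KIF23) fell, beside 9.74% of all mRNAs, and the median log2 fold change was -0.49 beside -0.03 over all mRNAs. Same-numbered libraries of the groups deviated together, so values with the replicate number as a block are given too. With the replicate block, 7 of the 13 fell, beside 25.2% of all mRNAs: KIF2C, KIF4A, KIF11, KIF18B, KIF20A, KIF22 and KIF23. Beyond the 1.5-fold limit, 4 kinesins were then downregulated, beside 8.36% of all mRNAs (KIF20A, KIF23, KIF24 and KIF3C), and 2 were upregulated, beside 8.22% (KIF5A and KIF5B). Among the proliferation markers, 4 of 6 fell and 1 was downregulated, or 5 and 5 with the replicate block. Their summed level was 662 to 830 CPM in Gln-depleted medium and 1204 to 1602 CPM in CTRL medium. Their part in the change of the kinesins was not tested.

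KIF20A was at 200.4, 127 and 98.6 CPM in CTRL medium and at 52.9, 36.1 and 38.4 CPM in Gln-depleted medium, for replicates 1, 2 and 3. Its log2 fold change was -1.74 (SE 0.30, adjusted p = 0.030 against the 1.5-fold limit), and -1.70 with the replicate block (adjusted p = 0.00074). All 3 Gln-depleted libraries lay below all 3 CTRL medium libraries, and the log2 ratios of the same-numbered libraries were -1.92, -1.82 and -1.36. Within experimental batch 2 alone the log2 fold change was -1.56 (adjusted p = 0.0073), and batch 1 holds 1 library per group. Without the block, the call was lost when CTRL medium replicate 1 or 2, or Gln-depleted replicate 2 or 3, was left out (adjusted p from 0.053 to 0.13, log2 fold change from -1.82 to -1.35). KIF23 was at 98.5, 133 and 113 CPM in CTRL medium and at 41.9, 69.1 and 58.0 CPM in Gln-depleted medium and fell (log2 fold change -1.03, adjusted p = 0.023 against no change and 0.14 against the 1.5-fold limit, 0.0072 with the replicate block and 0.076 within batch 2). AURKB, which KIF20A carries as part of its complex, was the 1 of 14 partners downregulated (-1.48, adjusted p = 0.038), beside 2.41% of all mRNAs. DESeq2 called 0 of the 14 beyond the 1.5-fold limit. ECT2 was the highest at 0.05, and 6 of the 14 fell, beside 9.74% of all mRNAs. With the replicate block, 11 of the 14 partners fell, beside 25.2% of all mRNAs, and 7 were downregulated, beside 8.36%. Of 15 factors E2F8 had the lowest log2 fold change (-1.49, adjusted p = 0.021 against no change). MYBL2 was the 1 factor downregulated (-1.48, adjusted p = 0.021), and NFYB had the highest log2 fold change (0.99, adjusted p = 0.15 against no change). With the replicate block, 4 of the 15 factors fell and 6 rose, beside 25.2% and 23.6% of all mRNAs.

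The other mitotic kinesins that were downregulated with MAPKi were spread widely across the batches of the Gln depletion experiment. KIF11 was at 51.9, 104 and 85.7 CPM in CTRL medium and at 40.2, 53.8 and 45.8 CPM in Gln-depleted medium (log2 fold change -0.79, adjusted p = 0.080 against no change, 0.0047 with the replicate block). KIF22 was at 130.1, 87.1 and 75.5 CPM in CTRL medium and at 90.4, 57.8 and 54.3 CPM in Gln-depleted medium (-0.53, adjusted p = 0.22, 0.0058 with the block). For both, each Gln-depleted library lay below the CTRL medium library of its own number, although the groups overlapped. KIF18B was at 135, 106 and 105 CPM in CTRL medium and at 98.5, 67.3 and 68.6 CPM in Gln-depleted medium (-0.56, adjusted p = 0.11, 0.0047 with the block). KIF4A was at 111, 87.0 and 72.8 CPM in CTRL medium and at 77.4, 61.1 and 53.4 CPM in Gln-depleted medium (-0.49, adjusted p = 0.16, 0.0079 with the block). KIF18B did not overlap between the groups, whereas KIF4A did. KIF2C was at 258, 121 and 93.0 CPM in CTRL medium and at 155, 99.5 and 80.3 CPM in Gln-depleted medium (-0.49, adjusted p = 0.42, 0.038 with the block), and within batch 2 its log2 fold change was -0.21 (adjusted p = 0.38).

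In KIF14, KIF18A and KIF20B, replicate 1 differed more from the other replicates than the groups differed from each other. Batch 1 holds 1 library per group, so the batch and these libraries cannot be told apart. KIF14 was at 27.5, 77.0 and 58.5 CPM in CTRL medium and at 24.3, 87.5 and 69.7 CPM in Gln-depleted medium (0.15, adjusted p = 0.85, 0.59 with the block). KIF18A was at 9.50, 29.5 and 22.1 CPM in CTRL medium and at 7.53, 26.1 and 21.7 CPM in Gln-depleted medium (-0.15, adjusted p = 0.87, 0.32 with the block). KIF20B was at 13.2, 51.9 and 40.7 CPM in CTRL medium and at 9.66, 43.6 and 33.3 CPM in Gln-depleted medium (-0.29, adjusted p = 0.77, 0.050 with the block). None of the 3 passed the test in either fit. In all 3 genes replicate 1 of both groups was the lowest library of its group, and the groups overlapped. KIF15 had 9 to 54 reads per library and KIFC1 0 to 185, with no order between the groups, and KIF4B was at 0.943 ± 0.304 CPM and 0.708 ± 0.216 CPM (SD, n = 3, adjusted p = 0.52).

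Of the 15 transport kinesins in Gln-depleted cells, 1 (KIF3C) fell and none rose by edgeR without the block, beside 8.71% of all mRNAs that rose and 3.15% that were upregulated. At an unadjusted p under 0.05, 2 were lower and 2 were higher, and DESeq2 called 1 in each direction against no change. KIF3C, a kinesin-2 subunit, was at 78.9, 74.2 and 83.7 CPM in CTRL medium and at 45.8, 35.1 and 44.9 CPM in Gln-depleted medium (log2 fold change -0.91, SE 0.18, adjusted p = 0.015 against no change). Against the 1.5-fold limit it had an adjusted p of 0.14, and of 0.021 with the replicate block. Its groups were far apart, and it had hardly moved with MAPKi. KIF5A was at 9.50, 5.70 and 4.39 CPM in CTRL medium and at 20.7, 12.9 and 9.60 CPM in Gln-depleted medium (1.14, adjusted p = 0.072 against no change). With the replicate block it was upregulated (adjusted p = 0.010), with log2 ratios of 1.13, 1.18 and 1.13 between same-numbered libraries. KIF5B was at 101, 364 and 341 CPM in CTRL medium and at 203, 668 and 552 CPM in Gln-depleted medium (0.82, adjusted p = 0.32). Each Gln-depleted library was above the CTRL medium library of its number, and with the block KIF5B was upregulated (log2 fold change 0.86, adjusted p = 0.036). Within experimental batch 2 alone these calls beyond the 1.5-fold limit were lost, with an adjusted p of 0.13 for KIF5B, 0.066 for KIF5A and 0.097 for KIF3C, whereas against no change it was 0.0086, 0.013 and 0.012. With a term for the experimental batch in place of the block, KIF5B lost its call as well (adjusted p = 0.056). KIF3B was at 63.6, 94.2 and 105 CPM in CTRL medium and at 93.5, 116 and 122 CPM in Gln-depleted medium (0.34, adjusted p = 0.33, 0.039 with the block). KIF1A had 8 to 59 reads per library, 59, 37 and 8 of them in Gln-depleted medium, and KIFC2 was lower in all 3 Gln-depleted libraries (-0.75, adjusted p = 0.081, 0.015 with the block). The other 9 transport kinesins had log2 fold changes from -0.55 (KIF3A) to 0.35 (KIF16B), and none of them passed the test with or without the block. Within batch 2 alone KIF3A fell (log2 fold change -0.73, adjusted p = 0.019 against no change), whereas its log2 ratio for replicate 1 was 0.21.

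KIF24 fell in Gln-depleted cells too, and was thus lower in both experiments. It was at 9.98, 7.72 and 8.02 CPM in CTRL medium and at 5.00, 3.80 and 4.05 CPM in Gln-depleted medium (log2 fold change -1.0, adjusted p = 0.028 against no change, 0.044 against the 1.5-fold limit with the replicate block and 0.13 within batch 2), with log2 ratios of -1.0, -1.02 and -0.99 between same-numbered libraries. KIF2A was at 65.4, 171 and 145 CPM in CTRL medium and at 81.6, 156 and 138 CPM in Gln-depleted medium and KIF21A at 23.0, 58.6 and 38.6 CPM in CTRL medium and at 21.2, 48.0 and 37.3 CPM in Gln-depleted medium. Neither fell (adjusted p = 0.97 and 0.78 against no change), and in both replicate 1 was the lowest of each group. KIF21B was at 8.37, 5.67 and 5.95 CPM in CTRL medium and at 15.1, 5.05 and 5.39 CPM in Gln-depleted medium, with the highest value in Gln-depleted replicate 1 (adjusted p = 0.61). KIF6, KIF7, KIF9 and KIF27 had log2 fold changes from -0.11 to 0.53 and did not pass the test. Of the 14 adaptors, 3 rose, beside 8.71% of all mRNAs, and 0 fell, beside 9.74%. Among those that rose were MAPK8IP1 (0.94, adjusted p = 0.018) and KLC2 (0.84, adjusted p = 0.033). MAPK8IP3 had the lowest value (-0.70, adjusted p = 0.10, 0.0063 with the block). With the block, 5 of the 14 adaptors fell, beside 25.2% of all mRNAs, and 4 rose, beside 23.6%. Of these, 1, MAPK8IP1, was upregulated (adjusted p = 0.036), beside 8.22% of all mRNAs. Of the 19 dynein and dynactin genes, DYNC1I1 fell (-1.29, adjusted p = 0.028), and DYNC1LI2 had the highest value (0.60). With the block, 3 of the 19 fell and 7 rose, beside the same 25.2% and 23.6% of all mRNAs.

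The responses to MAPKi and to Gln depletion were compared as a contrast over the 12 libraries. Of 36 kinesins tested, 7 differed, beside 40.4% of all mRNAs (quasi-likelihood test of edgeR, Benjamini-Hochberg adjusted). The log2 fold change with MAPKi minus that with Gln depletion was 1.16 (SE 0.35, adjusted p = 0.019) for KIF20A, which fell less with MAPKi than without glutamine. In KIF22, KIF23 and KIF18B the fall with MAPKi was the larger one, by -1.33 (SE 0.33, adjusted p = 0.0079), -0.80 (SE 0.21, adjusted p = 0.011) and -0.75 (SE 0.25, adjusted p = 0.032). KIF15 differed too, by -4.49 (SE 1.07, adjusted p = 0.0056), but it passed the filter on low counts in the MAPKi experiment through its DMSO libraries, and its second row holds more reads in MAPKi replicate 2 than the first. Without KIF15, 6 kinesins differed. KIF3C and KIF3B differed by 0.84 (SE 0.18, adjusted p = 0.0036) and 0.60 (SE 0.22, adjusted p = 0.046). The calls of KIF18B and KIF3B were lost when any DMSO or MAPKi library, or CTRL medium replicate 2 or 3, was left out. For KIF18B the adjusted p was then 0.050 to 0.080, and KIF3B also lost its call without Gln-depleted replicate 1 or 2. KIF5B differed by -1.19 (SE 0.60, adjusted p = 0.14), which did not pass, and by -1.22 with the replicate block (adjusted p = 2.9e-05). With the block, 19 kinesins differed, beside 60.9% of all mRNAs, and without replicate 1 of CTRL medium or of Gln-depleted medium 12 did, beside 43.5% and 48.2%. For KIF5A the difference was 0.01 (SE 0.45, adjusted p = 0.99), which did not pass.

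Per length, the kinesin mRNA of A375 cells was dominated by few genes. On the scale of CPM per kilobase of merged exons, KIF5B was the most abundant kinesin with DMSO, at 58.2 ± 2.18 (SD, n = 3), followed by KIF2C at 52.3 ± 4.4 and KIF20A at 45.4 ± 3.88. KIF5B and KIF2C, and KIF2C and KIF20A, differed by little more than the SD of the 3 libraries. KIF11, KIF4A, KIF23, KIF18B and KIF1C followed between 22.0 and 26.8. In MAPKi-treated cells KIF5B was at 44.8 ± 0.627, KIF20A at 29.8 ± 1.43 and KIF3B at 25.5 ± 0.157. The order depends on the length used. Per kilobase of coding length, KIF2A at 71.4 ± 2.77 came before KIF20A at 65.5 ± 5.59 with DMSO, and with MAPKi KIF3B at 69.7 ± 0.428 came before KIF1C at 52.8 ± 2.17 and KIF20A at 43.0 ± 2.06. KIF5B was first, and KIF20A the highest of the mitotic kinesins with MAPKi, on both scales. Summed over the mitotic members, the level was 231 to 262 with DMSO and 101 to 110.3 with MAPKi, whereas the transport members summed to 148 to 156 and 156 to 158. The mitotic share of all kinesin mRNA was 57.4% ± 1.17 with DMSO and 37.5% ± 1.0 with MAPKi (SD, n = 3). This share also depends on the length used: by coding length it was 46.6% ± 1.04 with DMSO and 27.1% ± 0.812 with MAPKi.

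In the Gln depletion experiment the mitotic share was lower in each Gln-depleted library than in the CTRL medium library of its number. It was 65.5, 50.9 and 46.5% in CTRL medium and 48.1, 34.5 and 33.0% in Gln-depleted medium for replicates 1, 2 and 3. The means were 54.3% ± 9.94 in CTRL medium and 38.5% ± 8.36 in Gln-depleted medium, and the groups overlapped. By coding length the means were 43.8% ± 9.83 and 30.1% ± 7.08, and the groups overlapped too. By exon length, the summed mitotic level was 152 to 227 and 103 to 129, which did not overlap. KIF5B made up 4.97% to 17.7% of the kinesin mRNA in CTRL medium and 12.9% to 33.3% in Gln-depleted medium, the lowest value of each group being replicate 1. The plot of summed levels shows the libraries side by side.

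**Figure D5:**
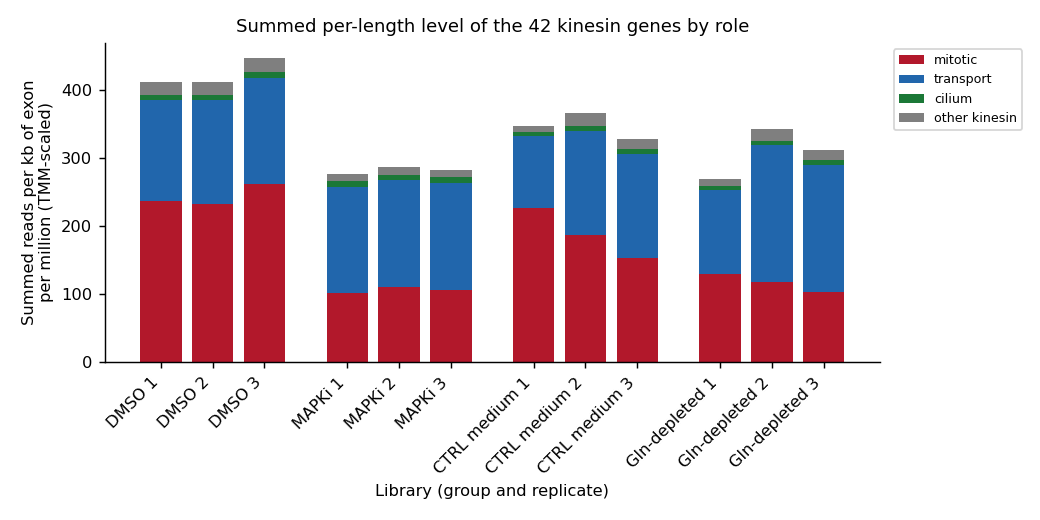
Summed level of the 42 kinesin genes in each of the 12 libraries, as CPM per kilobase of exon (y axis from 0), split by role. The mitotic part is smaller in the 3 MAPKi libraries (101 to 110.3) than in the 3 DMSO libraries (231 to 262), whereas the transport part hardly changes.

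Since the study concerns the amino acids of the encoded proteins, the composition of the kinesins was described from the longest coding sequence of each gene. The share of Lys, Glu, Asp and Asn had a median of 26.9% in mitotic kinesins (range 18.4% to 35.6%), 25.5% in transport kinesins, 24.0% in cilium kinesins and 18.9% in the others, beside 20.6% over 19129 coding genes. Taken singly, Lys was higher in mitotic (8.09%) than in transport kinesins (6.45%), as was Asn (4.585% and 4.016%). Glu (9.26% and 9.91%) and Asp (4.47% and 5.39%) were lower. Over all coding genes the medians were 5.41% for Lys, 6.58% for Glu, 4.57% for Asp and 3.42% for Asn. The mitotic kinesins were thus not richer in Asp than all coding genes. Across the 34 kinesins tested with MAPKi, the share of these 4 amino acids and the log2 fold change had a Pearson's r of -0.09 and a Spearman's rho of -0.05. Across 36 kinesins with Gln depletion, r was 0.17 and rho 0.14. These are correlations across genes, which share the same libraries and motor domain and are not independent replicates.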

How the data were processed

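The authors deposited raw counts per gene symbol, and the submitters' processing notes name fastp 0.20.1, HISAT2 2.2.1, HTSeq 0.13.5 and GRCh38.p13. The strand setting of the counting is not given in the sources used here, so reads of overlapping genes cannot be told apart. This touches KIF2A (21.3% of its exon bases overlap another gene), KIF9, KIFC2, KIFC1, KIF7 and KIF27. Of 44659 rows, 5082 are further copies of a symbol and were kept apart.

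Protein-coding genes were tested, if their normalized counts averaged 10 or more across the 6 libraries of an experiment. The tool was edgeR 4.0.16 (R 4.3.3) with TMM scaling and glmQLFit, followed by glmTreat against a 1.5-fold change and by glmQLFTest against no change, with Benjamini-Hochberg adjustment over all genes tested. CPM use TMM-scaled library sizes within each experiment. A filter on low counts keeps a gene more readily if either group is high. Levels between genes were divided by the merged exon length from the GENCODE annotation of GRCh38, and coding length was an alternative. Figures and tables were made with Python 3.11.15, pandas 2.3.3 and matplotlib 3.10.9.

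The members and lists were chosen with earlier results of these data known. Every member is accounted for, with values in every library for those called against the 1.5-fold limit in either comparison, and for KIF3A, KIF3C, KIF5B and KIF7, which were added after their values were seen. Of the other lists, the extremes and the partners of named kinesins are given. On simulated counts with log2 changes of 2 in well-read genes, the procedure called 199 of 200 changed genes with the spread of the DMSO libraries (12411 genes). With that of the CTRL medium libraries (12496 genes) it called 168 of 200. Among the unchanged genes, 7 and 4 were called. Smaller changes, changes in genes with few reads and paired replicates were not simulated, so these counts do not apply to them. Replicates differed by more than sampling noise. Deviations of same-numbered libraries from their group means correlated by 0.598, 0.458 and 0.393 in the Gln depletion experiment, where the labels also give the batch of each number. Alternatives were DESeq2 1.42.0, its size factors, other count limits (at least 2 reads, a mean of 100, all genes), a 2-fold limit, 1 fit of all 12 libraries, a replicate block, a GC-content correction, an experimental batch term, and each library left out.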

Additional observations from a re-analysis of the deposited data

Results flagged for a closer look

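For 7 kinesins the log2 fold change with MAPKi differed from that with Gln depletion in the contrast over 12 libraries (quasi-likelihood test of edgeR, Benjamini-Hochberg adjusted). The difference, MAPKi minus Gln depletion, was -4.49 for KIF15, -1.33 for KIF22, -0.80 for KIF23 and -0.75 for KIF18B, all lower with MAPKi. It was 1.16 for KIF20A, 0.84 for KIF3C and 0.60 for KIF3B. Under the alternatives run, KIF3B lost its call in 13 and kept it in 4, and KIF18B lost it in 8 and kept it in 9. KIF20A, KIF22, KIF23 and KIF3C lost it in 0. With the replicate block, the adjusted p of KIF20A was 0.00054 and that of KIF3C 0.00020. KIF15 rests on 3 to 188 reads per library in the MAPKi experiment and on 9 to 54 in the other. The experiments were sequenced in different batches, and each has its own reference libraries. Groups of 3 libraries were not searched for single outlying samples.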

How the results depend on the processing

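With MAPKi, 16 kinesins were called beyond the 1.5-fold limit. In 1 fit of all 12 libraries 8 were called and with a 2-fold limit 7, and of the transport kinesins 1 and 0 were upregulated in place of 2 (edgeR; against the 1.5-fold limit 2 had an unadjusted p under 0.05, and DESeq2 called 2). Either total leaves at most 7 downregulated mitotic kinesins, against 10 in the main fit. Calls over all mRNAs moved too. Of 12593 mRNAs, 2314 were downregulated and 2162 upregulated in the main fit, and 1256 and 1040 with the 2-fold limit. In the fit of 12 libraries these were 1636 and 1403 of 12627. Under the other alternatives the total of called kinesins was 14 to 17, and 10 to 11 mitotic kinesins were downregulated when each library was left out. Over all genes tested, 2027 to 2842 were then downregulated and 1736 to 2544 upregulated. The replicate block left the count at 16; same-numbered libraries correlated by 0.053 to 0.074, which is below 0.1, although every library correlated best with its own number. With Gln depletion the 1 call became 6 with the replicate block, 5 with the experimental batch term, 4 with 1 fit of 12 libraries, 4 with the replicate block and a GC-content correction, 2 with that correction alone, 0 with a 2-fold limit, and 0 to 1 when each library was left out. Over all mRNAs, 302 were downregulated and 394 upregulated in the main fit, against 1046 and 1028 with the replicate block. These were 955 and 929 with the batch term and 903 and 790 with 1 fit of 12 libraries. With the GC-content correction they were 540 and 660, and 954 and 1020 with the block added. A 2-fold limit gave 67 and 177, and leaving out a library 70 to 430 and 162 to 433. The 2 mitotic kinesins that fell became 7 with the replicate block, 8 with it and the GC-content correction, 6 with the batch term, 5 with 1 fit of 12 libraries, 5 with replicates 2 and 3 only, 4 with the GC-content correction, and 1 to 3 without a library. Over all mRNAs, the 1219 that fell became 3154 with the replicate block and 3106 with it and the GC-content correction. They became 2891 with the batch term, 2830 with 1 fit of 12 libraries and 2119 with replicates 2 and 3 only. With the GC-content correction they were 1961, and 320 to 1481 without a library. The 7 kinesins whose responses differ, beside 40.4% of all mRNAs, became 19 with the replicate block, beside 60.9%, and 5 to 12 without a library. Over all mRNAs, 2142 to 2962 then differed in the lower direction and 2075 to 3124 in the higher. The causes of these moves were not tested. Among kinesins called beyond the 1.5-fold limit, or differing between the experiments, no direction was reversed under the alternatives run. Direction was compared only where the main fit or the alternative made the call. Kinesins that only fell or rose against no change were not compared. Without KIF15, KIF4B and KIFC1, added after seeing the data, 15 kinesins were called with MAPKi. With coding length the mitotic share of kinesin mRNA fell by 19.6 points with MAPKi (19.9 with exon length). Depth was not varied.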
